A study of Mus musculus with 6 samples.

Results

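The genes described here are 3 ligands of the epidermal growth factor (EGF) receptor, Ereg, Hbegf and Tgfa, together with the transcription factor gene Fosl1 and the receptor gene Plaur. They are 5 of 8588 named genes measured on expression arrays of 2T3 cells, a mouse pre-osteoblast line. Each had 1 probe with its symbol alone in the platform annotation, and all 5 passed the filter on low values. The genes were chosen from their simulated microgravity and static intensities, so their values on these arrays are a description and carry no test.

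The EGF receptor, a tyrosine kinase, is activated by a family of ligands that are made as membrane-anchored precursors and released by metalloproteinases. The activated receptor signals through Ras and the ERK kinases to the nucleus, where AP-1, a dimer of Fos and Jun family proteins, is one of the outputs. In bone, EGF receptor signalling is known to keep osteoblast precursors dividing and to restrain their late differentiation. Fosl1 encodes Fra-1, a Fos family protein that promotes bone matrix formation in mice, and Plaur encodes the cell-surface receptor of the protease urokinase, a gene with known AP-1 control in other cells.

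The comparison was between 2 groups, each with 3 samples, 1 array per sample and all grown in OptiCell culture cassettes. The simulated microgravity cells were moved on a Random Positioning Machine, which keeps turning a culture so that gravity has no lasting direction. The static cells were left in place as controls. The series title gives the aim as the effect of simulated microgravity on differentiation and gene expression, and the labels give no exposure time. All samples share the 2T3 line, which was immortalised with a viral T antigen driven by a bone morphogenetic protein promoter, and the labels do not say whether the samples of a group were separate cultures, so spreads may be technical.

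Values are intensities divided by the array median and are given as times the median. The 6 arrays held 10337 to 10432 values each, and 10146 of 10500 probes could be tested. Microgravity 2 and static 2 had 6.44% and 9.16% of their values at or below the floor of 0.1 times the median, against 17.1% to 19.8% on the other arrays. Of 13 osteoblast markers 9 were on the array, with summed levels of 252 to 311 times the median in simulated microgravity and 435 to 564 in static cells. The bone sialoprotein gene Ibsp was the 1 osteoblast marker below the median on every array. All 5 epithelial markers measured, Cdh1, Krt8, Epcam, Krt19 and Krt18, lay near the floor, with summed levels of 0.514 to 0.641 in simulated microgravity and 0.500 to 0.612 in static cells. The endothelial markers (5 measured) were also all below the median, with sums of 0.633 to 0.857 in simulated microgravity and 0.669 to 0.831 in static cells. Of 7 macrophage and blood markers, Cd14 and Lyz2 were above the median, while Ptprc, Tyrobp and Itgam were at or near the floor, and the sums were 10.3 to 16.7 in simulated microgravity and 14.2 to 17.9 in static cells. Of 3 adipocyte markers, Fabp4 and Pparg were above the median and Adipoq was near the floor, with sums of 26.7 to 29.9 in simulated microgravity and 24.96 to 34.1 in static cells. The part of the lower osteoblast sum in the values below was not tested.

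Among the ligands, Ereg and Hbegf had higher values on every simulated microgravity array than on any static array, and Tgfa had overlapping values. Ereg encodes epiregulin, which binds the EGF receptor and ErbB4. It had 12.9, 14.3 and 12.2 times the array median in simulated microgravity 1, 2 and 3, against 5.85, 6.86 and 7.54 in static 1, 2 and 3. The groups did not overlap, and the lowest simulated microgravity value was 1.62 times the highest static value. The means were 13.1 ± 1.03 in simulated microgravity and 6.75 ± 0.852 in static cells (SD, n = 3 each), a ratio of 1.95 between geometric means and a log2 change of 0.97. Because whole cultures were measured, more RNA per cell and more cells that express a gene cannot be told apart, here or for the genes that follow.

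Hbegf encodes heparin-binding EGF-like growth factor, a ligand of the EGF receptor and ErbB4 that binds heparan sulphate at the cell surface. Its values were 4.61, 4.56 and 5.04 times the median on the simulated microgravity arrays and 1.78, 1.74 and 2.71 on the static arrays. The simulated microgravity arrays lay close together, whereas static 3 stood above the other static arrays. The groups did not overlap, and the nearest values of the groups differed 1.68-fold. Means were 4.74 ± 0.263 in simulated microgravity and 2.08 ± 0.550 in static cells (SD, n = 3 each), a ratio of 2.33 and a log2 change of 1.22.

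Tgfa, the gene of transforming growth factor alpha, which binds the EGF receptor alone, had 0.574, 0.706 and 0.707 times the median in simulated microgravity. In static cells it had 0.759, 0.605 and 0.595. The groups overlapped, with the highest value on static 1 and the lowest on microgravity 1. Means were 0.663 ± 0.0765 in simulated microgravity and 0.653 ± 0.0919 in static cells (SD, n = 3 each), and the log2 change was 0.02. Leaving out static 2, static 3, microgravity 2 or microgravity 3 turned its sign.

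**Figure D1:**
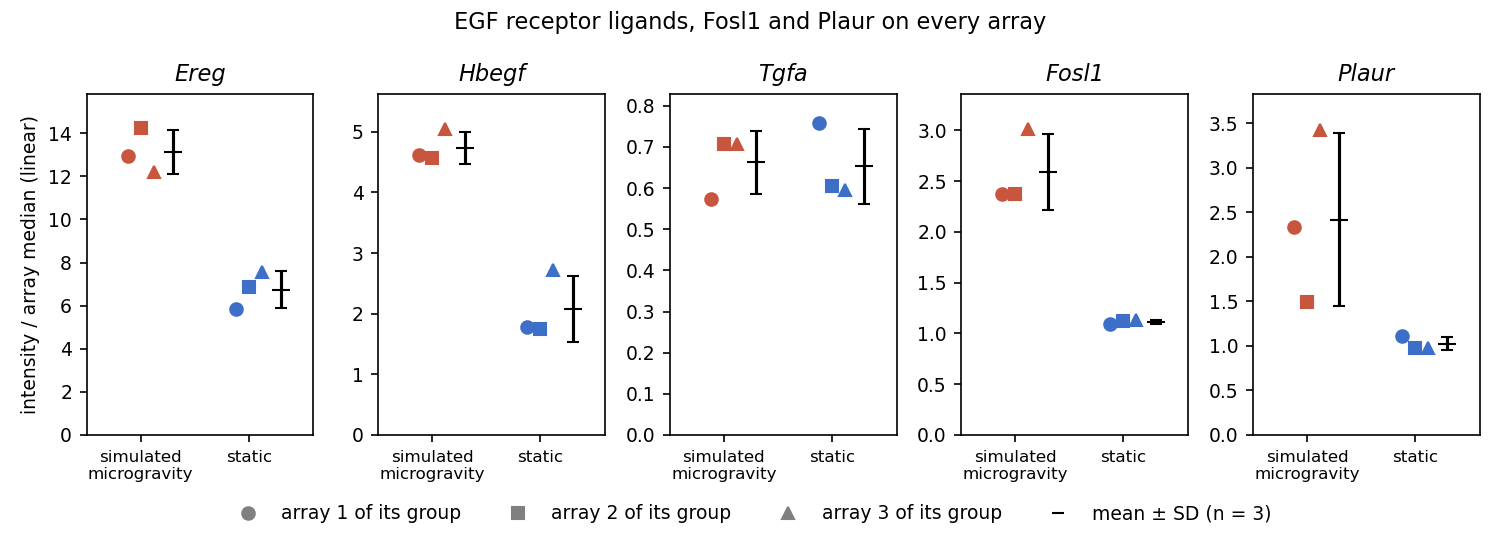
Intensity over the array median (linear axis from 0, scaled separately for each gene) for the 5 genes, with simulated microgravity arrays in red, static arrays in blue, and mean ± SD over 3 arrays in black. Every simulated microgravity array lies above every static array for Ereg, Hbegf, Fosl1 and Plaur, and the groups overlap for Tgfa.

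Fosl1, the AP-1 subunit gene, had 2.38, 2.38 and 3.02 times the median in simulated microgravity, against 1.09, 1.12 and 1.13 in static cells. The static arrays were almost level, with the highest 1.03 times the lowest, and microgravity 3 stood above the other exposed arrays. The lowest simulated microgravity value was 2.11 times the highest static value, the widest such gap of the 5 genes. Means were 2.59 ± 0.370 in simulated microgravity and 1.11 ± 0.0195 in static cells (SD, n = 3 each), a ratio of 2.31 and a log2 change of 1.21.

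Plaur, the urokinase receptor gene, had 2.34, 1.49 and 3.43 times the median on microgravity 1, 2 and 3, against 1.11, 0.980 and 0.980 on static 1, 2 and 3. The exposed arrays varied 2.30-fold among themselves, the most of the 5 genes, while the static arrays varied 1.13-fold. The groups did not overlap, but microgravity 2 lay only 1.34 times above the highest static array. Means were 2.42 ± 0.971 in simulated microgravity and 1.02 ± 0.0748 in static cells (SD, n = 3 each), a ratio of 2.24 and a log2 change of 1.16. Microgravity 2 is also the array with the fewest values at the floor (6.44%), and the part of this in the Plaur value was not tested. The log2 change of Plaur was 1.47 without microgravity 2 and 0.87 without microgravity 3.

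Promoter sequences are shown for Plaur and Tgfa from RefSeq start-site windows (build GRCm38.p6). These 2 genes were not picked for how their values changed. Windows of the other genes were not used here. Each runs from 250 bases before a start site to 50 bases after it, on the plus strand and 5′ to 3′. Capitals mark a match to the AP-1 motif TGANTCA on either strand.
Plaur, chr7:24462233-24462532: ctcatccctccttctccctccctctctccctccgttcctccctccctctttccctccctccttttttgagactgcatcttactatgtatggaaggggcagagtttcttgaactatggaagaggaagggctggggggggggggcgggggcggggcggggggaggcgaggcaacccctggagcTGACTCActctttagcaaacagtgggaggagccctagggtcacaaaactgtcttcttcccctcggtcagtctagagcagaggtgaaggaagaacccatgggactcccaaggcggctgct
Tgfa, chr6:86194972-86195271: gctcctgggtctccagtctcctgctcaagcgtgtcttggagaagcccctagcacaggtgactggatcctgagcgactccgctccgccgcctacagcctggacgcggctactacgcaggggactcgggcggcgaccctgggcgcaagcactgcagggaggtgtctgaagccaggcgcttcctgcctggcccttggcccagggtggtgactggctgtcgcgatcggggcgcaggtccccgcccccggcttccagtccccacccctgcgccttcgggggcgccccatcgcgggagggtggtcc

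The Plaur window held 1 AP-1 match, TGACTCA, whose first base lies 69 bases before the start site (position -69), and the Tgfa window held 0. Among all 32851 promoter windows of this length, 7.81% held an AP-1 match on either strand. Neither window matched the cyclic AMP response motif TGACGTCA, found in 1.79% of all windows, or the CArG box, found in 1.63% and bound by serum response factor. A match is a description of letters, and no binding was measured. With so few windows, no link between a match and the change of a gene can be read. Ereg, Hbegf and Fosl1 are named without a promoter sequence.

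Set among all 10146 tested probes, whose median log2 change was 0.05, Hbegf had the 49th highest log2 change, Fosl1 the 52nd, Plaur the 58th, Ereg the 115th and Tgfa the 5394th. All simulated microgravity arrays were above all static arrays for 4 of the 5 genes, and for 8.11% of all tested probes. Since these values chose the genes, nothing is read from that difference. The spread within groups was small for Fosl1 and wide for Plaur. It comes from the same values that chose the genes, so it too is a description. The pooled within-group SD on the log2 scale was 0.14 for Fosl1, 0.15 for Ereg, 0.18 for Tgfa, 0.26 for Hbegf and 0.43 for Plaur, against a median of 0.29 over all probes. Of all probes, 12.4% had a smaller spread than Fosl1 and 75.7% a smaller spread than Plaur.

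**Figure D2:**
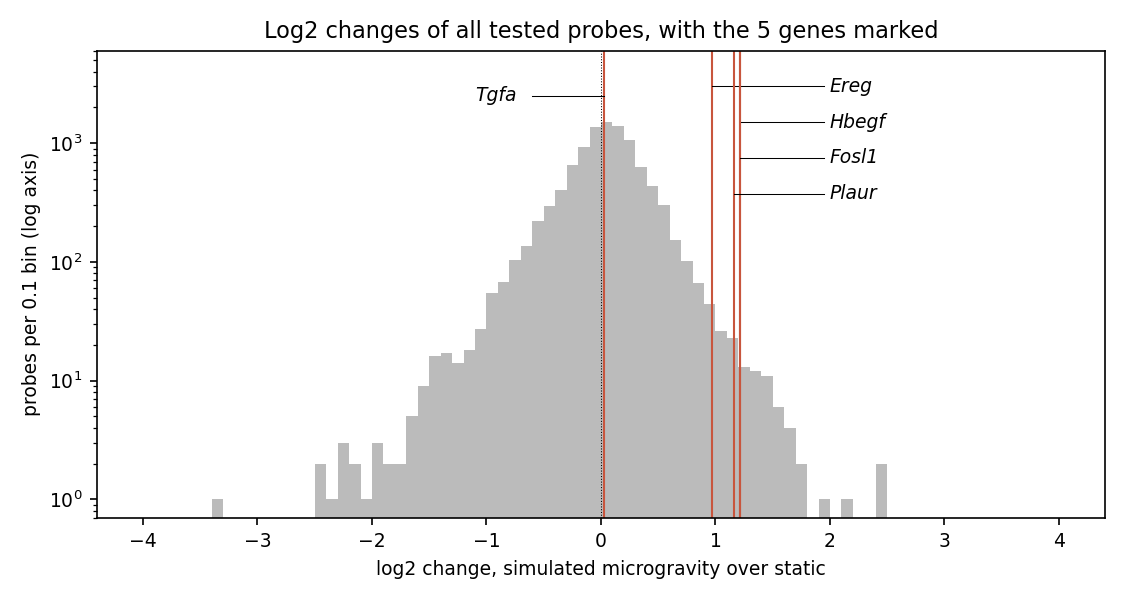
Histogram of log2 changes, simulated microgravity over static, for the 10146 tested probes in bins of 0.1 (log count axis), with a red line at each of the 5 genes. Ereg, Plaur, Fosl1 and Hbegf lie between 0.97 and 1.22 in the upper tail, and Tgfa lies at 0.02, near the centre.

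Arrays of 1 group did not order the genes alike. Of the exposed arrays, microgravity 3 was the highest for Hbegf, Tgfa, Fosl1 and Plaur and the lowest for Ereg. Its deviation from the group mean on the log2 scale was 0.58 for Plaur and 0.23 for Fosl1, but -0.10 for Ereg. Of the static arrays, static 3 was the highest for Ereg, Hbegf and Fosl1 and the lowest for Tgfa and Plaur, with a deviation of 0.42 for Hbegf and 0.02 for Fosl1. Static 1 was the highest static array for Tgfa (0.23) and Plaur (0.12) and the lowest for Ereg (-0.20) and Fosl1 (-0.03).

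Likeness of pattern was measured as the root-mean-square difference of log2 values over the 6 arrays, each gene centred on its own mean, against 6866 other genes with values above the floor on every array. All these profiles come from the same arrays and contain the comparison on which the genes were chosen, so the distances are a description. Plaur and Fosl1 differed by 0.27, which made Fosl1 the 7th nearest of all genes to Plaur, but Plaur the 61st nearest to Fosl1. Plaur lay further from the ligands Hbegf (0.39) and Ereg (0.45). It was the 185th nearest to Hbegf and the 1613th nearest to Ereg. Hbegf and Fosl1 differed by 0.21, and Fosl1 was the 10th nearest to Hbegf. Ereg and Hbegf differed by 0.22, with Ereg the 15th nearest to Hbegf but Hbegf the 109th nearest to Ereg. Tgfa differed from the other genes of the set by 0.53 to 0.68, above the median difference of 0.31 between Tgfa and all genes.

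The nearest genes to Fosl1 were Cth, an enzyme that makes cysteine, at 0.06, followed by Dennd2d at 0.08 and Dus4l, a tRNA dihydrouridine synthase family gene, at 0.13. Cth had 13.0, 12.7 and 17.6 times the median in simulated microgravity and 5.52, 5.90 and 5.95 in static cells, with microgravity 3 the highest, as for Fosl1. The nearest genes to Hbegf were Glrp1 at 0.14, Dennd2d at 0.15 and Dus4l at 0.17, so Dennd2d and Dus4l stood near both genes. The nearest genes to Plaur were the ribonucleoprotein gene Nhp2 and the glutathione transferase gene Gsto1, both at 0.19, and Atf3, a stress-induced gene of the ATF family whose protein pairs with Jun, at 0.19. Atf3 had 3.51, 2.75 and 4.48 times the median in simulated microgravity and 1.80, 1.87 and 1.81 in static cells, with the exposed arrays in the same order as for Plaur. The nearest genes to Ereg were the mitochondrial carrier gene Slc25a39 at 0.07, the pseudouridine synthase gene Pus7 at 0.07 and the elongation factor gene Tcea1 at 0.08. The nearest genes to Tgfa were Cox7b and Gprc5d, at 0.03 and 0.04, and the proton pump gene Atp6v1c1 at 0.04.

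**Figure D3:**
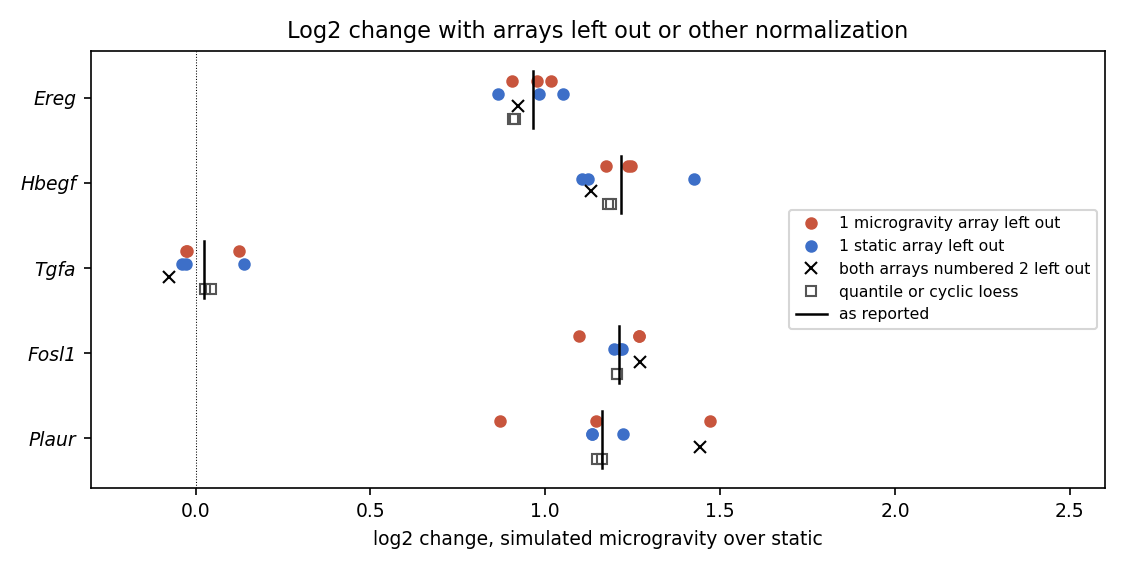
Log2 change, simulated microgravity over static, of each of the 5 genes as reported (black line), with 1 exposed (red) or 1 static (blue) array left out, with both arrays numbered 2 left out (crosses) and after quantile or cyclic loess normalization (squares). Values stay between 0.87 and 1.47 for Ereg, Hbegf, Fosl1 and Plaur and lie on either side of 0 for Tgfa.

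The other genes of the pathway were taken from 10 lists that held 133 genes beyond these 5, of which 94 could be tested. Of these 94, 0 rose and 0 fell at an adjusted p under 0.05 (limma, adjusted over all probes), while 28 of all 10146 probes (0.276%) passed. The count of 28 was 0 with any 1 of the 6 arrays left out. At an unadjusted p under 0.05, 9 were higher and 3 lower in simulated microgravity, which is 12.8% of the 94, against 10.8% of all probes. The median log2 change was 0.13 over the 94 genes and 0.05 over all genes. Groups did not overlap in 11 higher and 6 lower of the 94, against 823 higher and 768 lower of all 10146 probes.

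The other ligands measured were Epgn and Egf. Epgn, which encodes epigen, is the neighbouring protein-coding gene of Ereg on its chromosome in RefSeq's order. Epgn had 0.868, 0.958 and 0.652 times the median in simulated microgravity and 0.488, 0.686 and 0.671 in static cells. Its groups overlapped, because microgravity 3 lay below static 2 and static 3 (log2 change 0.42, 95% interval -0.19 to 1.04, limma adjusted p = 0.710). Egf itself lay at or near the floor, at 0.106 ± 0.0280 in simulated microgravity and 0.128 ± 0.0494 in static cells (SD, n = 3 each), with 3 of 6 arrays below the floor. Areg and Btc, the next protein-coding genes on the other side of Ereg, were not analysed here.

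Egfr, the receptor gene itself, had 0.439, 0.551 and 0.505 times the median in simulated microgravity and 0.511, 0.727 and 0.595 in static cells. These ranges overlapped (log2 change -0.28, 95% interval -0.84 to 0.27, limma adjusted p = 0.856). Erbb2, Erbb3 and Erbb4, the other receptors of the family, were not analysed here. Of the neuregulins, ligands of the ErbB receptor family, Nrg3 had 0.909 ± 0.119 in simulated microgravity and 0.964 ± 0.109 in static cells (SD, n = 3 each). Nrg4 lay near the floor, at 0.0887 ± 0.0734 in simulated microgravity and 0.0639 ± 0.0292 in static cells.

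Genes that release the ligands or restrain the receptor had values in both directions. Of 20 measured, 9 had higher and 11 lower values, 0 passed, and the median log2 change was -0.09. Errfi1, an inhibitor of the EGF receptor kinase, had the smallest p of the list. It had 8.05, 7.81 and 7.39 times the median in simulated microgravity and 5.05, 6.03 and 6.63 in static cells, with no overlap (log2 change 0.40, SE 0.15, limma adjusted p = 0.388). Timp3, an inhibitor of the sheddase ADAM17, had 33.6 ± 8.15 in simulated microgravity and 21.8 ± 6.51 in static cells (limma adjusted p = 0.488). Adam17 itself, a gene singled out with its values known, had 2.52 ± 0.919 in simulated microgravity and 3.12 ± 1.41 in static cells. Sh3gl1 and Sh3kbp1, adaptors of receptor endocytosis, had log2 changes of -0.26 and -0.50 with no overlap between groups either, and neither passed (limma adjusted p = 0.505 and 0.559).

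Of 16 adaptor and ERK cascade genes, 10 had higher and 6 lower values, 0 passed, and the median log2 change was 0.09. Map2k1 and Map2k2, the genes of the kinases that activate ERK, had no overlap between groups. Map2k1 had 15.6 ± 0.943 in simulated microgravity and 12.2 ± 1.33 in static cells (limma adjusted p = 0.414), and Map2k2 had 10.5 ± 0.715 in simulated microgravity and 8.55 ± 0.566 in static cells (SD, n = 3 each). The ETS factor gene Elk3 and the adaptor gene Grb2 had log2 changes of -0.66 and -0.42, and neither passed (limma adjusted p = 0.525 and 0.583).

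The other Fos and Jun genes had log2 changes of -0.38 to 0.18, against 1.21 for Fosl1, and the difference between genes was not tested. Fos had 0.832 ± 0.1004 in simulated microgravity and 0.809 ± 0.212 in static cells, and Fosb had 5.05 ± 1.62 in simulated microgravity and 5.15 ± 1.71 in static cells (SD, n = 3 each). Fosl2, the closest relative of Fosl1, had 0.601 ± 0.104 in simulated microgravity and 0.685 ± 0.134 in static cells (log2 change -0.19, 95% interval -0.79 to 0.42). Junb and Jund had log2 changes of -0.34 and 0.18, with limma adjusted p-values of 0.824 and 0.898. Jun varied widely within groups, at 7.76 ± 7.32 in simulated microgravity and 7.14 ± 4.15 in static cells (log2 change -0.38, 95% interval -2.90 to 2.13).

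Of all 14 other AP-1 and related genes measured, 7 had higher and 7 lower values and 0 passed, with a median log2 change of 0.01. That median was -0.05 after quantile and -0.04 after cyclic loess normalization. Atf3 had the smallest p of the list (log2 change 0.94, SE 0.21, limma adjusted p = 0.143). The small Maf genes Mafk and Maff had log2 changes of 0.97 and 0.81, with limma adjusted p-values of 0.603 and 0.552. Mafk had no value on microgravity 2 and static 2, so its change rests on 2 arrays in each group.

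**Figure D4:**
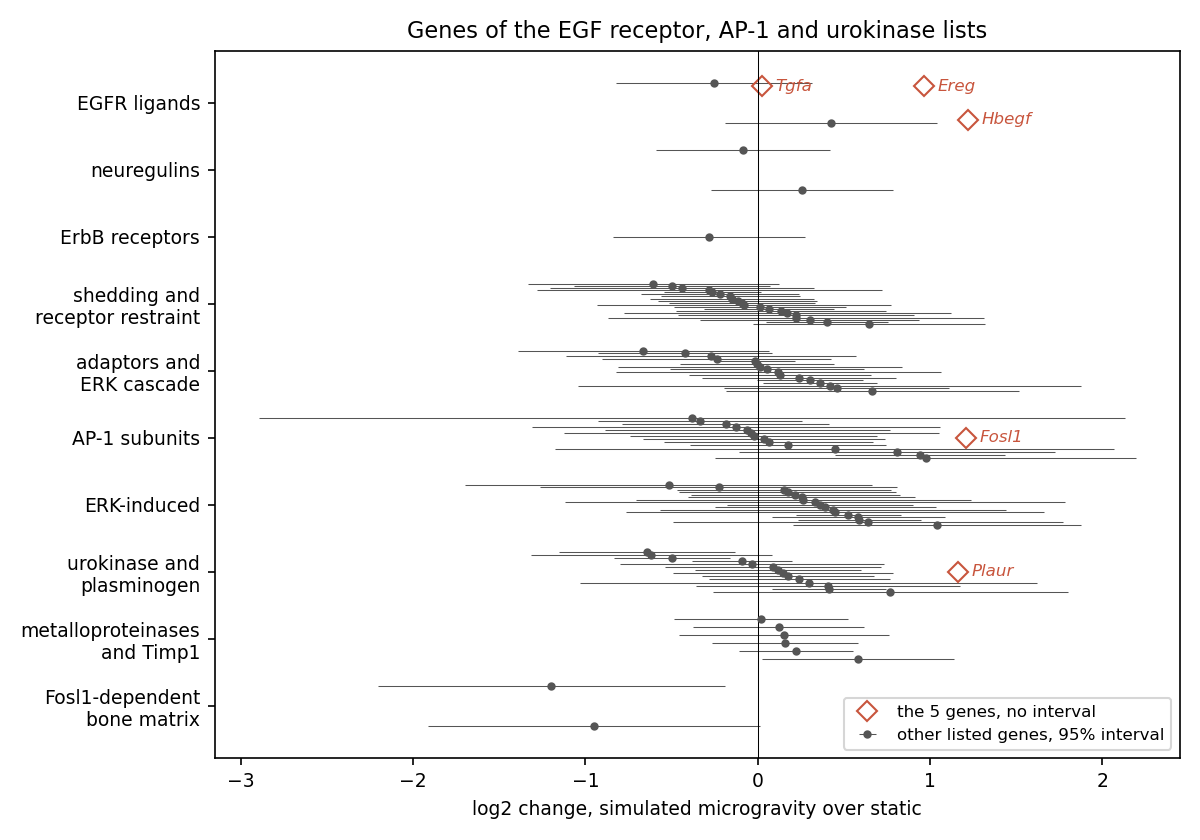
Log2 change, simulated microgravity over static, of the 94 other pathway genes (grey points with limma's 95% interval) by list, and of the 5 genes (open red diamonds, no interval because the values chose them). Fosl1 and Plaur lie above every other gene of their lists, but these values chose them, so nothing is read from their place. Of 17 genes induced by ERK signalling, 15 lie above 0, against 56.6% of all genes. The lists were chosen with earlier results of these data known.

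Genes known to be induced by ERK signalling mostly had higher values. Of 17 measured, 15 were higher and 2 lower, and the median log2 change was 0.36, against 56.6% of all genes with higher values and a median of 0.05. None (0) passed by limma. At an unadjusted p under 0.05, 4 (23.5%) were higher and 0 lower, against 564 higher and 536 lower of all 10146 probes. The count of 15 of 17 was the same after quantile and cyclic loess normalization, with medians of 0.38 and 0.34. With the floor at 0.2 times the median it was also 15 of 17, with a median of 0.25. With the dimmest 25% of probes left out, Etv4 and Il11 were lost and 13 of 15 were higher, with a median of 0.39. The 4 at an unadjusted limma p under 0.05 were Spry1, Myc, Hmga2 and Phlda1. They also were the 4 genes of the list whose groups did not overlap, a pattern found in the higher direction in 8.11% of all probes. Because the list was chosen with earlier results of these data known, nothing is read from these differences.

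Spry1, an inhibitor of receptor tyrosine kinase signalling that the pathway itself induces, had 16.7, 18.2 and 19.4 times the median in simulated microgravity and 12.0, 12.4 and 13.2 in static cells (log2 change 0.53, SE 0.13, limma adjusted p = 0.180). The growth-promoting transcription factor gene Myc had 20.1 ± 2.27 in simulated microgravity and 13.4 ± 1.33 in static cells (limma adjusted p = 0.191). Hmga2, which encodes a chromatin architecture protein, had 2.75, 2.16 and 1.37 in simulated microgravity and 0.666, 1.21 and 1.16 in static cells (log2 change 1.04, SE 0.35, limma adjusted p = 0.332). Phlda1 had 1.28 ± 0.0175 in simulated microgravity and 0.864 ± 0.163 in static cells (limma adjusted p = 0.376).

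Around Plaur, the urokinase and plasminogen genes had values in both directions. Of 14 others measured, 9 had higher and 5 lower values and 0 passed, with a median log2 change of 0.13. Plau, the gene of urokinase itself, was dim, at 0.165 ± 0.0747 in simulated microgravity and 0.163 ± 0.0230 in static cells (SD, n = 3 each). Its log2 change was -0.03 (95% interval -0.80 to 0.73) and turned to 0.09 with the floor at 0.2 times the median. Plat, the gene of the other plasminogen activator, had 0.288, 0.329 and 0.264 in simulated microgravity and 0.350, 0.662 and 0.390 in static cells without overlap (log2 change -0.62, limma adjusted p = 0.550). Serpinb2, an inhibitor of urokinase, had 0.196, 0.182 and 0.204 in simulated microgravity and 0.149, 0.140 and 0.148 in static cells. Those groups did not overlap, at levels close to the floor (log2 change 0.41, limma adjusted p = 0.333), and with the floor at 0.2 times the median the log2 change was 0.0084. In the list as a whole, groups did not overlap in 1 higher gene and 3 lower genes of 14, against 823 higher and 768 lower of all 10146 tested probes.

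The smallest p-values of the urokinase list belonged to lower values, in Masp1 and Anxa2, neither with overlapping groups. Serpinb2, with higher values, was almost level with Anxa2 (limma unadjusted p = 0.0219 and 0.0211). Masp1 is a protease of the lectin pathway of complement, but it is included in the counts of this list. It had 7.09 ± 0.490 in simulated microgravity and 10.0 ± 1.14 in static cells (limma adjusted p = 0.243). Anxa2, a cell-surface binding partner of tissue plasminogen activator, had 39.1 ± 6.79 in simulated microgravity and 61.3 ± 12.9 in static cells (limma adjusted p = 0.326). Mrc2, a collagen uptake receptor that associates with Plaur protein, had 0.597 ± 0.254 in simulated microgravity and 0.505 ± 0.255 in static cells. Vtn was not analysed here.

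Genes known as AP-1 or Fra-1 dependent showed no call either. Of the 5 matrix metalloproteinase genes measured and Timp1, all 6 had higher values and 0 passed, with a median log2 change of 0.16, and after cyclic loess normalization 5 of the 6 were higher. Of all genes 56.6% had higher values, with a median of 0.05. This list too was chosen with earlier results of these data known, so nothing is read from the count. With the floor at 0.2 times the median or the dimmest 25% of probes left out, 2 of the 6 remained, with medians of 0.29 and 0.35. Mmp3 had 0.284 ± 0.0743 in simulated microgravity and 0.187 ± 0.0204 in static cells (log2 change 0.58, limma adjusted p = 0.431). Mmp13, Mmp9 and Mmp1a lay near the floor in both groups, with log2 changes of 0.22, 0.15 and 0.16. Mmp1a was at or below the floor on 4 of 6 arrays. Mmp10 had a log2 change of 0.02. Both bone matrix genes measured of those that fall in mice without Fosl1 had lower values, and 0 of the 2 passed. Col1a2, a chain of type I collagen, had 23.9, 25.6 and 11.8 in simulated microgravity and 26.2, 64.4 and 51.9 in static cells, without overlap (log2 change -1.20, SE 0.42, limma adjusted p = 0.363). Mgp, an inhibitor of mineralisation, had 48.1, 26.0 and 67.9 in simulated microgravity and 108, 57.0 and 98.9 in static cells, with overlapping groups (log2 change -0.95, limma adjusted p = 0.474).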

How the data were processed

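Expression was measured in 6 samples of 2T3 cells, 3 in simulated microgravity and 3 static. The deposited table holds linear intensity values, 1 per probe and array. No label or header says how the authors made them, and the deposited array medians of 0.908 to 0.927 were taken as prior scaling. Each array was divided by its median, a floor of 0.1 was set, and log2 was taken. The test left out 290 probes that were at the floor throughout and 64 with only 1 value or none in a group. Groups were compared over all probes with limma (version 3.58.1, R 4.3.3), lmFit and eBayes with an intensity trend, two-sided, with Benjamini-Hochberg adjustment and a threshold of 0.05. The fit was tested on simulated data. Symbols came from the platform annotation, which gave 8983 of 10500 probes 1 symbol, 1 several and 1516 none, and 8975 gene identifiers matched RefSeq's mouse table. Different probes of a gene were represented by the brightest. Motifs were searched in RefSeq promoter windows, and the build behind the probes is not known.

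The 5 genes and the 10 lists were chosen with earlier results of these data known. Named by rule were the measured ligands, receptors, Fos and Jun genes and urokinase genes, up to 4 genes with the smallest p of each other list, and the 3 nearest genes of each of the 5. The number of arrays limits the precision. Alternatives were other normalizations, floors of 0.05 and 0.2, the dimmest 25% of probes left out, a replicate block and arrays left out.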

Additional observations from a re-analysis of the deposited data

How the results depend on the processing

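The log2 changes of Ereg, Hbegf, Fosl1 and Plaur kept their sign and stayed within 1 pooled within-group SD of the reported value under every alternative run. Most of this was fixed in advance. Because their groups did not overlap, leaving out arrays could not turn the sign. Leaving out 1 of 3 arrays also cannot move a change by 1 such SD. Other floors, the dimmest 25% left out and the replicate block returned the reported changes unchanged. The sign was therefore open to change under quantile and cyclic loess normalization only. Tgfa ranged from -0.038 to 0.137 with single arrays left out, and was -0.076 with static 2 and microgravity 2 left out together, an alternative chosen after seeing the data. The count of probes past the threshold, 28 as reported, was 54 with quantile and 56 with cyclic loess normalization, 53 with the floor at 0.05, 40 with the floor at 0.2 and 59 after dropping the dimmest 25% of probes. It was 0 by limma with any 1 array left out (761 to 968 probes at an unadjusted p under 0.05, lowest adjusted p 0.0613 to 0.201). It was also 0 with both arrays numbered 2 left out (848 probes). These fits have fewer samples. With the replicate block it was 0 (938 probes at an unadjusted p under 0.05). The labels do not say that the numbers mark pairs, and they were not treated as pairs. Deviations of same-numbered arrays correlated at -0.21, 0.46 and -0.18 for replicates 1, 2 and 3. Arrays correlated best with their own number for replicate 2 alone. Microgravity 1 and static 3 were each other's best match, as were microgravity 3 and static 1. Centred on 3 arrays per group, these correlations depend on one another, so they cannot decide whether arrays were paired. Microgravity 2 and static 2 also had the most empty values, 163 and 134, against 68 to 75 on the other arrays. The block followed the array numbers and covers no other pairing. Whether arrays of the 2 groups shared a batch was not tested, and the main fit took no pairing into account. The block changed no other call. Of the other pathway genes 0 passed under every alternative, with 6 to 13 at an unadjusted p under 0.05. The number of arrays and the floor limit what can be seen in dim genes such as Plau, Egf and Nrg4.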
